A study of Mus musculus with 12 samples.

Results

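The 9 *Slc22* genes described here (*Slc22a5*, *Slc22a7*, *Slc22a18*, *Slc22a23*, *Slc22a26*, *Slc22a27*, *Slc22a28*, *Slc22a29* and *Slc22a30*) are members of a family of membrane transporters for organic ions. They were found by gene symbol in the deposited expression table, which gave 9 of its 25676 genes. All 9 had a mean of at least 0.5 TPM over the 12 livers, and so all 9 were among the 12278 genes that were tested. TPM is a transcript level that is scaled to transcript length and to a fixed library sum, so levels of different genes can be set beside each other on this scale. A gene can pass such a filter through a single group, and *Slc22a26*, *Slc22a27*, *Slc22a28* and *Slc22a29* each had at least 1 group in which libraries were listed at 0.

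SLC22 proteins sit in the plasma membrane of epithelial cells and carry organic cations, organic anions and zwitterions such as carnitine. In liver they take up drugs, hormone conjugates and metabolites from the blood across the sinusoidal membrane of the hepatocyte. *Slc22a5* encodes OCTN2, a sodium-dependent carnitine transporter, and *Slc22a7* encodes OAT2, an organic anion transporter. *Slc22a18* and *Slc22a23* encode orphan members, and *Slc22a18* lies in an imprinted domain. *Slc22a26* to *Slc22a30* are rodent genes related to the organic anion transporters. They lie next to each other on mouse chromosome 19. In rodents several hepatic transporters and cytochrome P450 enzymes differ between the sexes under the control of the sex-specific pattern of growth hormone release.

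Bulk RNA sequencing was performed on 12 whole-liver samples of C57BL/6 mice of 3 to 4 months of age, each called a liver here. The groups were 3 WT males, 3 WT females, 3 Foxa3-Cre YAP1 KO males and 3 Foxa3-Cre YAP1 KO females, called KO below. YAP1 is the transcriptional co-activator of the Hippo pathway, and the *Foxa3* promoter drives Cre in the embryonic gut endoderm that gives rise to hepatocytes and to biliary epithelium. No other allele or agent is named for any group, whether the WT mice carried Cre or floxed alleles is not given in the sources used here, and replicate numbers follow the order of deposition and pair no animals. The labels do not state in so many words that each sample was a separate animal, so the p-values measure the spread between these libraries.

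The *Yap1* transcript level was 29.5 ± 4.46 TPM (SD, n = 6) in WT and 2.02 ± 0.775 TPM (SD, n = 6) in KO livers. Summed *Ddx3y*, *Eif2s3y*, *Kdm5d* and *Uty* levels were 52.5 to 101.3 TPM in the 6 males and at most 0.122 TPM in the 6 females, as labelled. The 9 hepatocyte markers found in the table summed to between 112940 and 148260 TPM in WT and between 94912 and 116590 TPM in KO libraries. Of these 9, 2 were higher and 5 lower in KO over both sexes (1 and 6 after the rescaling described below), with *Hpx* at 4337 ± 1079 TPM in WT and 14900 ± 1942 TPM in KO and *Serpina1c* at 11470 ± 3038 and 3331 ± 210.2 TPM (SD, n = 6 each). Over all tested genes 50.1% passed as higher and 4.82% as lower (20.9% and 18.7% after rescaling), and the marker counts here stand beside these shares. All 8 cholangiocyte markers were detected in both genotypes, with sums of 28.1 to 62.4 TPM in WT and 281 to 741 TPM in KO, most of which was *Spp1* (33.8 ± 11.2 TPM in WT and 492 ± 195 TPM in KO, SD, n = 6 each). Of 6 tested cholangiocyte markers 4 were higher and 1 was lower on both scales, the latter *Epcam*. Another of them, *Krt19*, was at 1.38 ± 0.641 TPM in WT and 1.25 ± 0.728 TPM in KO (SD, n = 6 each). All 8 macrophage markers were detected too, with sums of 71.1 to 232 TPM in WT and 350 to 729 TPM in KO, and all 8 were higher over both sexes on both scales. All 8 stellate cell markers summed to 63.8 to 176 TPM in WT and 177 to 428 TPM in KO. Of these 8, 6 were higher and 0 lower (4 and 1 after rescaling), the latter *Lrat*, at 5.68 ± 2.31 TPM in WT and 3.64 ± 1.65 TPM in KO (SD, n = 6 each). *Epcam*, *Krt19* and *Lrat* were named after their values were seen. Of 8 endothelial markers 2 were higher and 2 lower over both sexes (1 and 3 after rescaling). They summed to 61.5 ± 9.59 TPM in WT and 66.9 ± 33.4 TPM in KO (SD, n = 6 each). Of 5 tested lymphocyte markers 0 passed over both sexes on either scale. All 8 lymphocyte markers summed to 4.66 ± 1.93 TPM in WT and 4.52 ± 2.18 TPM in KO (SD, n = 6 each). The 8 kidney markers summed to at most 0.271 TPM in any library, with *Slc12a1*, *Slc5a2* and *Aqp2* at 0 in all libraries of both genotypes. In whole tissue, fewer hepatocytes and less RNA per hepatocyte cannot be told apart, and the part of these cell markers in the *Slc22* results was not tested.

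The median tested gene was 0.35 higher in KO than in WT over both sexes on the log2(TPM + 1) scale as deposited. The same difference was 0.44 in males and 0.27 in females, and within WT the median was -0.19 in males relative to females. After a median-of-ratios rescaling, in which each library is divided by its median ratio to the average library, the same medians lay between -0.04 and 0. Each *Slc22* change below is therefore to be read against these medians, and rescaled values are given where the call changed.

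*Slc22a26*, *Slc22a27*, *Slc22a28*, *Slc22a29* and *Slc22a30* form a tandem cluster on chromosome 19, all on the minus strand. In GENCODE M21 on GRCm38 the 5 genes lie at chr19:7781041-7802667 (*Slc22a26*), chr19:7864388-7966027 (*Slc22a27*), chr19:8062209-8131982 (*Slc22a28*), chr19:8160165-8218900 (*Slc22a29*) and chr19:8335371-8405111 (*Slc22a30*). The span from the first to the last held these 5 genes of the table and 0 others. The 5 promoters are printed because these neighbouring genes had unlike expression patterns. Each runs 5′ to 3′ on the gene's strand from 250 bases before to 50 bases after the transcription start, from RefSeq on GRCm38.p6, at chr19:7802618-7802917, chr19:7965978-7966277, chr19:8131933-8132232, chr19:8218851-8219150 and chr19:8405056-8405355 in the same order. Capitals mark runs of at least 12 bases that are also found in the promoter of another cluster gene.
*Slc22a26*: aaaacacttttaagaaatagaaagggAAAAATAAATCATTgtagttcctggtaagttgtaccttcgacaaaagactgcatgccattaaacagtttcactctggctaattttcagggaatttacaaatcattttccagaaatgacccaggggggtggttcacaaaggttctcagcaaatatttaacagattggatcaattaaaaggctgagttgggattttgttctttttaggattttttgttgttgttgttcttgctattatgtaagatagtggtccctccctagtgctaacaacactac
*Slc22a27*: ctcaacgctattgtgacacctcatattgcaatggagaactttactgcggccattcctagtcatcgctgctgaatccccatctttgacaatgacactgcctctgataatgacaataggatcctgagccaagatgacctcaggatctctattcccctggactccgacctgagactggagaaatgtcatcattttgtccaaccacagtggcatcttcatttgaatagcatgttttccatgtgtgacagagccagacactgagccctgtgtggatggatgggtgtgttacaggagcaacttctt
*Slc22a28*: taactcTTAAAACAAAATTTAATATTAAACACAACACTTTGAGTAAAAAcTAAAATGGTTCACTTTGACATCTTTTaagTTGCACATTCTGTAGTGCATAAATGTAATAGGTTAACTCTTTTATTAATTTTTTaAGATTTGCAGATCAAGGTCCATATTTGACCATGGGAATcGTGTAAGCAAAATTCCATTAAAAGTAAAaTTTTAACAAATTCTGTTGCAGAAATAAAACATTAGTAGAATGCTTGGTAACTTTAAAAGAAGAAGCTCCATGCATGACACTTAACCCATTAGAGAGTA
*Slc22a29*: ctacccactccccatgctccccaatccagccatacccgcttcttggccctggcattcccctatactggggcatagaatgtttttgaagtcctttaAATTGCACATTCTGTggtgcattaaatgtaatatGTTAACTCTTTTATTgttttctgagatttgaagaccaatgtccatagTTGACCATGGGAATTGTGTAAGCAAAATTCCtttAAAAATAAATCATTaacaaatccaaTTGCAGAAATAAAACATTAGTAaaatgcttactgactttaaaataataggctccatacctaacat
*Slc22a30*: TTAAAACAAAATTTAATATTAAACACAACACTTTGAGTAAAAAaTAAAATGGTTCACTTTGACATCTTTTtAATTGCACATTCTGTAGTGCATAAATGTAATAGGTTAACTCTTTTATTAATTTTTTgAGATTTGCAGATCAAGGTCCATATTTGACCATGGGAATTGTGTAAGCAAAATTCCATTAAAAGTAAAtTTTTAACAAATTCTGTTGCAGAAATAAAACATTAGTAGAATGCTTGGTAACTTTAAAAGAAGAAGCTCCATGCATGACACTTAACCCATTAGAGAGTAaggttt
The capitals cover 287 bases of the *Slc22a28* promoter, 290 of *Slc22a30*, 97 of *Slc22a29*, 14 of *Slc22a26* and 0 of *Slc22a27*. The *Slc22a28* and *Slc22a30* promoters were offset by 6 bases and were identical at 288 of 294 overlapping bases. The 6 substitutions from *Slc22a28* to *Slc22a30* were C50A, A77T, G79A, A134G, C173T and A202T, counted from 1 at the 5′ end of the *Slc22a28* sequence above. The motif TTCNNNGAA, the form bound by STAT5 and BCL6, was searched on both strands and found in *Slc22a26* alone of the 8 members with a promoter in the table, as TTCAGGGAA starting 141 bases before the start site (position -141). It was held by 8.30% of the 32851 promoters of the same length. The TEAD motif GGAATG was found on the opposite strand, as CATTCC, at -200 in *Slc22a27* and at -198 in *Slc22a29*, and 14.7% of all promoters held it. The Cux and Onecut type motif ATCGAT, the palindromic HNF1 motif and the nuclear receptor direct repeat spaced by a single base were in none of these 8 promoters, and were held by 0.925%, 0.0091% and 0.0396% of all promoters. None of these motifs overlapped another in the printed windows. A match describes letters and not binding.

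Between the genotypes, the cluster genes moved in different directions and by sex. Over both sexes, limma adjusted p was under 0.05 for 4 of the 9 members, with *Slc22a18* higher and *Slc22a28*, *Slc22a30* and *Slc22a7* lower in KO, where 54.9% of all tested genes passed, 50.1% as higher and 4.82% as lower. In males 7 of 9 members passed, 4 higher and 3 lower, against 46.1% of all tested genes (43.3% higher and 2.81% lower). In females 6 of 9 passed, 1 higher and 5 lower, against 33.8% of all genes (29.1% higher and 4.68% lower). KO and WT values did not overlap for 3 members over both sexes, 1 higher and 2 lower in KO, where 28.7% and 1.88% of all tested genes did so. They did not overlap for 7 members in males, 4 higher and 3 lower in KO, where the shares were 50.8% and 3.42%. In females they did not overlap for 6 members, 1 higher and 5 lower, where the shares were 43.5% and 7.88%. The median change of the 9 members was 0.08 over both sexes, 0.35 in males and -0.76 in females. The medians of all tested genes were 0.35, 0.44 and 0.27 in the same order. After rescaling the member medians were -0.37, -0.18 and -1.08, and those of all tested genes were -0.04, -0.04 and -0.03. After rescaling, 5 members passed over both sexes, all 5 lower, where 20.9% of all genes passed as higher and 18.7% as lower. In males the rescaled count was 6, 3 higher and 3 lower, where 13.9% of all genes passed as higher and 10.2% as lower. In females it was 5 lower, where 15.2% of all genes passed as higher and 10.9% as lower.

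**Figure D1:**
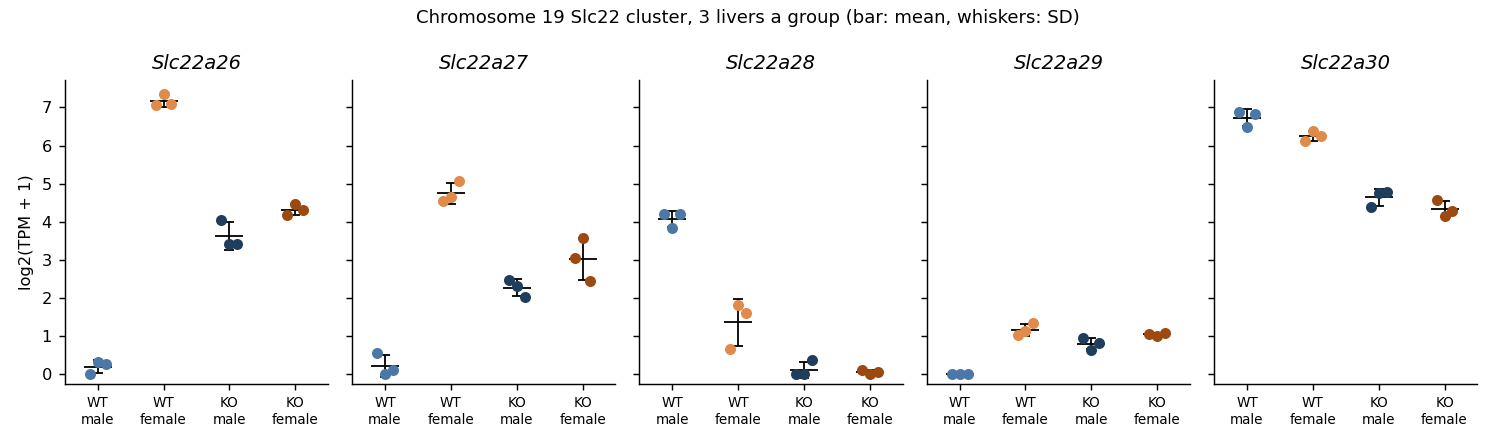
Transcript levels of the 5 chromosome 19 genes as log2(TPM + 1) on a shared vertical axis, by group, with 1 point per liver, the mean as a bar and the SD as whiskers (n = 3 a group). *Slc22a26* and *Slc22a27* are near 0 in WT males and highest in WT females, *Slc22a28* is highest in WT males, and *Slc22a30* is lower in both KO groups than in both WT groups.

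*Slc22a26*, an organic anion transporter-like gene, was at 133.67, 163.24 and 136.54 TPM in the 3 WT females and at 0, 0.249 and 0.208 TPM in the 3 WT males. In KO livers it was at 17.03, 21.24 and 18.80 TPM in females and at 15.58, 9.66 and 9.65 TPM in males. No pair of groups overlapped: WT females were highest, then KO females, then KO males, and WT males were lowest. The level rose by 3.43 on the log2(TPM + 1) scale in KO males (SE 0.189, limma adjusted p = 5.21e-08). It fell by 2.86 in KO females (SE 0.189, limma adjusted p = 3.09e-07), which is 7.60-fold lower by mean TPM. The average of these opposite changes, 0.28 over both sexes, did not pass (limma adjusted p = 0.797), and its sign turned to -0.02 after rescaling. The 3 WT male libraries held 17 *Slc22a26* reads in all, with reads recovered from steps in the low TPM values. The 3 WT female libraries held 14816 and the 3 KO male libraries 945. From these reads the WT female level was 904 times the WT male level, with an exact 95% interval of 565 to 1553. The KO male level was 73.5 times the WT male level, with an interval of 45.7 to 127. Both intervals cover counting error only.

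*Slc22a27*, the next gene along the chromosome and related to the same transporters, followed the same order at a lower level. It was at 22.17, 23.89 and 32.54 TPM in WT females and at 0.466, 0 and 0.0711 TPM in WT males. In KO females it was at 7.24, 10.94 and 4.48 TPM, and in KO males at 4.55, 3.93 and 3.09 TPM. The WT groups did not overlap each other or either KO group, while the lowest KO female lay inside the KO male range. It rose by 2.05 in KO males (SE 0.267, limma adjusted p = 8.06e-05) and fell by 1.72 in KO females (SE 0.267, limma adjusted p = 3.74e-04) on the log2 scale. Over both sexes the difference was 0.17 and did not pass (limma adjusted p = 0.813), with -0.10 after rescaling. By recovered reads, with 2021 in WT females, 229 in KO males and 13 in WT males, the WT female level was 161 times the WT male level (counting interval 94.1 to 304). The KO male level was 23.3 times the WT male level (counting interval 13.4 to 44.4). The size of both ratios rested on WT male replicate 1, which held 11 of the 13 reads. Without it they were 732 (counting interval 202 to 6051) and 106 (28.9 to 878), and without WT male replicate 2, which held 0, they were 107 and 15.4.

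*Slc22a29*, another organic anion transporter-like gene, was listed at 0 TPM in all 3 WT males. It was at 1.02, 1.204 and 1.53 TPM in WT females, at 0.937, 0.566 and 0.758 TPM in KO males and at 1.07, 1.00 and 1.11 TPM in KO females. The 9 libraries above 0 held between 12 and 49 reads each. Its mean over the 12 livers, 0.768 TPM, was the lowest of the 9 members, although *Slc22a28* was lower in KO livers. A count of 0 allows up to 3 reads, which is 0.101 to 0.121 TPM in the WT male libraries. Against that floor per library, the mean level was at least 11.4-fold higher in WT females, at least 6.86-fold higher in KO males and at least 9.69-fold higher in KO females. The rise in KO males passed (0.80 on the log2(TPM + 1) scale, SE 0.147, limma adjusted p = 9.59e-04), and the female difference of -0.12 did not (SE 0.147, limma adjusted p = 0.566). Over both sexes the difference of 0.34 did not pass (limma adjusted p = 0.0870), but it passed with a pseudocount of 0.1 (1.43, limma adjusted p = 0.0279) or without WT female replicate 3 (0.43, limma adjusted p = 0.0364). For *Slc22a26*, *Slc22a27* and *Slc22a29* alike, each KO male liver was above each WT male liver, as for 50.8% of all tested genes.

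*Slc22a28*, an organic anion transporter-like gene, had the reverse sex pattern in WT. It was at 17.47, 13.21 and 17.34 TPM in WT males and at 0.581, 2.54 and 2.02 TPM in WT females. In KO males it was at 0, 0 and 0.286 TPM and in KO females at 0.0868, 0 and 0.0467 TPM. All 6 KO libraries were below all 6 WT libraries. The KO libraries held 0, 0 and 5 reads in males and 2, 0 and 1 in females, against 1162 in the WT males and 123 in the WT females. The gene fell by 3.96 in KO males (SE 0.257, limma adjusted p = 2.25e-07) and by 1.30 in KO females (SE 0.257, limma adjusted p = 0.00201) on the log2(TPM + 1) scale. By reads the WT male level was 176 times the KO male level (counting interval 75.1 to 542), and the WT female level was 37.3 times the KO female level (counting interval 12.5 to 183). All 5 KO male reads were in replicate 3, so without it the male ratio was at least 200.1, against a floor of 3 reads over the other KO males. It was 115 or 116 without KO male replicate 1 or 2. The female ratio was 71.4 without KO female replicate 1 (counting interval 12.6 to 2844). Over both sexes it fell by 2.63 (SE 0.404, limma adjusted p = 1.24e-04).

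*Slc22a30*, the most abundant cluster gene in WT males, was lower in KO livers of both sexes. It was at 116.92, 88.34 and 112.74 TPM in WT males and at 69.16, 83.14 and 75.79 TPM in WT females. In KO males it was at 20.02, 26.04 and 26.54 TPM and in KO females at 22.58, 16.69 and 18.32 TPM. The genotypes did not overlap, and the lowest WT library (69.16 TPM) was above the highest KO library (26.54 TPM). It fell by 2.01 over both sexes (SE 0.116, limma adjusted p = 1.99e-08), by 2.09 in males (limma adjusted p = 1.46e-06) and by 1.94 in females (limma adjusted p = 3.32e-06) on the log2 scale. By mean TPM it was 4.19-fold lower in KO, from 91.0 ± 19.6 (SD, n = 6) to 21.7 ± 4.06 (SD, n = 6). Each library held between 541 and 4967 *Slc22a30* reads.

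The 5 genes summed to 122 ± 17.9 TPM in WT males and 250 ± 23.7 TPM in WT females (SD, n = 3 each). In KO livers the sums were 40.5 ± 0.477 TPM in males and 46.9 ± 3.69 TPM in females (SD, n = 3 each). The makeup of that sum differed between groups. In WT males *Slc22a30* gave 86.7% and *Slc22a28* 13.1% of it. In WT females *Slc22a26* gave 57.8%, *Slc22a30* 30.5% and *Slc22a27* 10.5%. In both KO groups *Slc22a30* and *Slc22a26* were the main transcripts, with 59.8% and 28.6% in males and 41.1% and 40.7% in females. *Slc22a27* then gave 9.51% of the sum in KO males and 15.8% in KO females, and *Slc22a29* gave 1.86% and 2.28%.

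**Figure D2:**
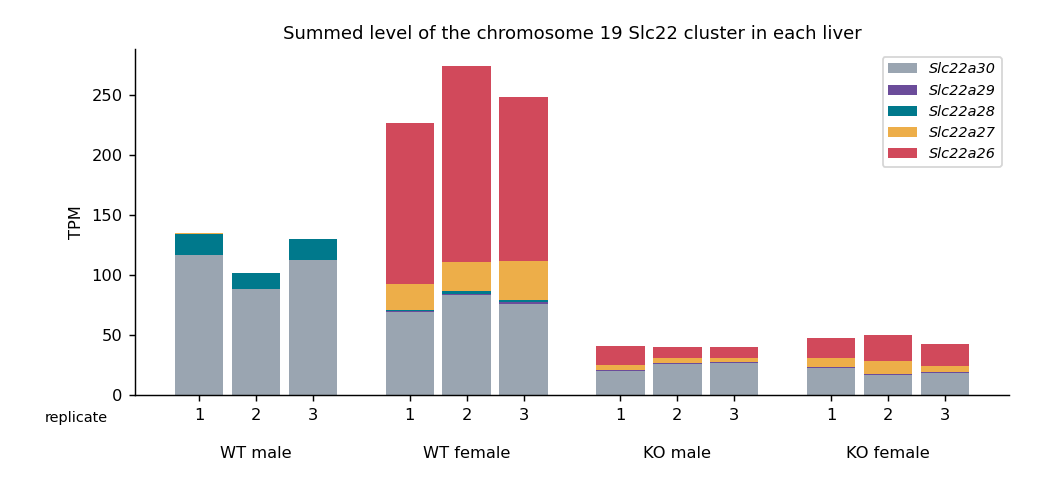
Stacked bars of the TPM of the 5 cluster genes in each of the 12 livers, grouped by sex and genotype. WT males consist of *Slc22a30* and *Slc22a28*, WT females are mostly *Slc22a26*, and the 6 KO livers have lower sums with *Slc22a30*, *Slc22a26* and *Slc22a27* in both sexes.

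*Slc22a28* and *Slc22a30* are close copies. Their coding sequences were identical at 98.79% of aligned bases, and 37.0% of the 100-base windows of *Slc22a28* transcripts and 21.1% of those of *Slc22a30* also occurred in transcripts of other cluster genes. Reads from such windows can be split between the copies, so their separate values are uncertain to that extent. The *Slc22a28* level was 15.1% ± 0.249 of the *Slc22a30* level in WT males and 2.19% ± 1.18 in WT females (SD, n = 3 each). It was 0.360% ± 0.623 in KO males and 0.213% ± 0.196 in KO females (SD, n = 3 each), and the part of read sharing in these values was not tested. Windows shared with other genes made up 7.31% of *Slc22a27*, 7.51% of *Slc22a29*, 0.558% of *Slc22a26*, and 12.9% of *Slc22a5*, the last with *Slc22a21*. *Slc22a7*, *Slc22a18* and *Slc22a23* had 0 such windows.

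Sequence and expression were set beside each other for the 10 pairs of cluster genes, as a description. Likeness of expression was the root-mean-square difference between the centred log2(TPM + 1) profiles over the 12 livers, where a lower value means more alike. *Slc22a28* and *Slc22a30* had the most similar coding sequences and the smallest such difference, 0.888. *Slc22a26* and *Slc22a27* shared 74.16% of aligned coding bases and 44.01% of promoter bases, and had the next smallest difference, 0.929. *Slc22a27* and *Slc22a29* shared 97.28% of coding but 47.88% of promoter bases, with a difference of 1.24. *Slc22a27* and *Slc22a28* shared 91.55% of coding and 42.49% of promoter bases and differed by 2.96. The largest difference was 3.75, between *Slc22a26* and *Slc22a28*. The 10 pairs share genes and libraries, so no test was made.

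**Figure D3:**
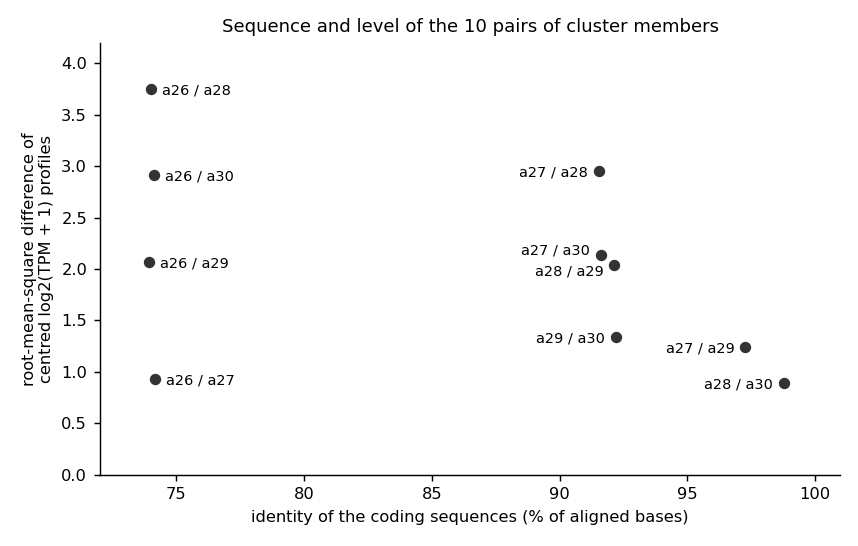
Identity of coding sequences (horizontal, percent of aligned bases) against the root-mean-square difference of centred log2(TPM + 1) profiles over 12 livers (vertical), with 1 point for each of the 10 pairs of cluster genes, named without the Slc22 prefix. The pair *Slc22a28* and *Slc22a30* lies lowest at 0.888, and the 4 pairs with *Slc22a26*, at 73.92% to 74.16% identity, run from 0.929 to 3.75.

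*Slc22a7* lies on the minus strand at chr17:46432183-46438457 and encodes OAT2, an organic anion transporter of the hepatocyte's blood-facing membrane. It was at 29.73, 50.33 and 39.34 TPM in WT males and at 16.52, 11.72 and 44.39 TPM in WT females. In KO males it was at 9.36, 10.40 and 8.96 TPM and in KO females at 12.26, 11.30 and 13.28 TPM. All KO males were below all WT males, whereas 1 WT female lay within the KO female range and another far above it. It fell by 1.92 in males (SE 0.354, limma adjusted p = 0.00103), or 4.16-fold by mean TPM. The female difference of -0.71 did not pass (SE 0.354, limma adjusted p = 0.147), and depended on single libraries: it was -0.17 without WT female replicate 3, the high one (limma adjusted p = 0.609), and passed at -1.09 without WT female replicate 2 (limma adjusted p = 0.0312). Over both sexes it fell by 1.31 (SE 0.295, limma adjusted p = 0.00213).

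*Slc22a5*, on the minus strand at chr11:53864542-53891660, encodes the carnitine transporter OCTN2. It was at 8.76, 8.04 and 11.96 TPM in WT males and at 19.26, 24.39 and 17.18 TPM in WT females. In KO males it was at 10.25, 14.58 and 12.40 TPM and in KO females at 12.61, 10.91 and 10.92 TPM. WT females stood above the other 3 groups, which overlapped. It fell by 0.76 in KO females (SE 0.186, limma adjusted p = 0.00739), 1.77-fold by mean TPM. The male difference of 0.35 did not pass (SE 0.186, limma adjusted p = 0.141), and it was -0.18 after rescaling. Over both sexes the difference was -0.21 (limma adjusted p = 0.393), but after rescaling it fell by 0.63 and passed (limma adjusted p = 0.00889).

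Of 12 genes of carnitine synthesis, of carnitine use and of fatty acid oxidation, 11 were tested. Over both sexes 2 were higher and 4 lower in KO, with a median change of -0.26, where the median of all tested genes was 0.35, and 50.1% of them passed as higher and 4.82% as lower. After rescaling 1 was higher and 8 lower, where 20.9% of all tested genes were higher and 18.7% lower. *Crat*, the carnitine acetyltransferase, rose by 1.30, from 10.3 ± 2.37 to 26.8 ± 5.81 TPM (SD, n = 6 each). *Bbox1*, the last enzyme of carnitine synthesis, fell from 51.1 ± 10.97 to 32.0 ± 3.64 TPM (SD, n = 6 each). *Shmt1*, a serine hydroxymethyltransferase, fell from 121 ± 40.3 to 69.0 ± 5.05 TPM (SD, n = 6 each). By sex it fell by 1.15 in females (limma adjusted p = 3.29e-05), while the male difference of -0.32 passed only after rescaling (limma adjusted p = 0.0636 as deposited and 1.97e-04 rescaled), and the interaction did not pass (limma adjusted p = 0.0610). In females 6 of the 11 were lower in KO and 1 higher (7 and 1 after rescaling), where 4.68% of all tested genes were lower and 29.1% higher (10.9% and 15.2% after rescaling). In males 1 was lower and 2 were higher (5 and 1 after rescaling), where 2.81% of all tested genes were lower and 43.3% higher (10.2% and 13.9% after rescaling). In the genotype by sex interaction 0 of the 11 passed in limma, where 0.912% of all tested genes did. At an unadjusted p under 0.05 there were 2 of the 11 (1 after rescaling), where 1087 of all 12278 tested genes were (931 after rescaling).

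**Figure D4:**
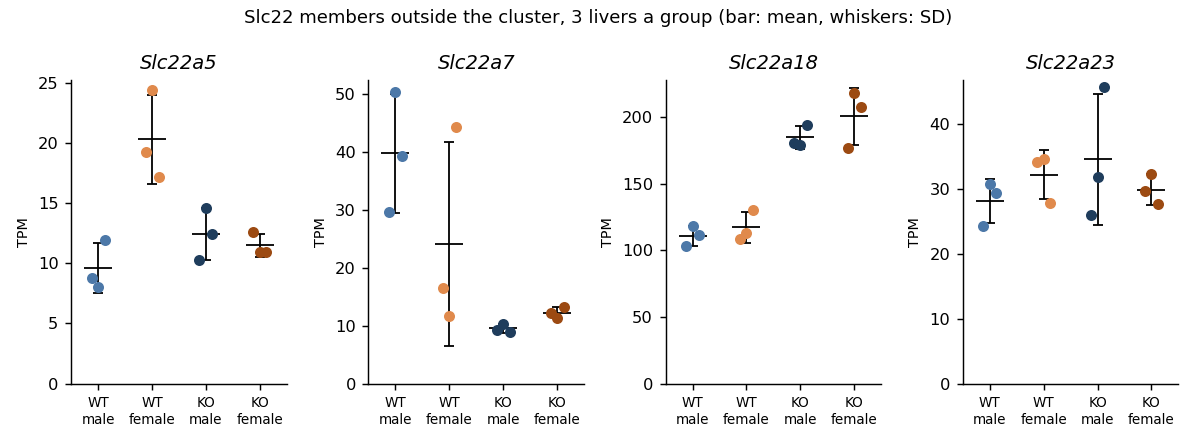
TPM of the 4 members outside the cluster by group on separate linear axes from 0, with 1 point per liver, the mean as a bar and the SD as whiskers (n = 3 a group). *Slc22a5* is highest in WT females, *Slc22a7* is at most 13.28 TPM in the 6 KO livers, *Slc22a18* is at least 176.75 TPM in the 6 KO livers, and *Slc22a23* overlaps across the groups.

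*Slc22a18*, on the plus strand at chr7:143473736-143499334, is an orphan transporter in an imprinted domain. It was at 103.36, 118.16 and 111.41 TPM in WT males and at 108.56, 113.03 and 130.14 TPM in WT females. In KO males it was at 180.47, 179.22 and 194.30 TPM and in KO females at 176.75, 217.94 and 207.09 TPM. All KO libraries were above all WT libraries, and it was the most abundant of the 9 members in all 6 KO livers. It rose by 0.75 over both sexes (SE 0.0890, limma adjusted p = 1.35e-05), from 114 ± 9.25 to 193 ± 16.9 TPM (SD, n = 6 each). After rescaling the rise was 0.29 and did not pass (limma adjusted p = 0.0629), nor did the 0.16 in males (limma adjusted p = 0.523) or the 0.42 in females (limma adjusted p = 0.0741). Of 12 imprinted neighbours, 8 were tested, and 4 were higher and 0 lower in KO over both sexes, with a median of 0.32 (2 higher and 0 lower after rescaling). This count was near that of all tested genes. Of those 50.1% were higher and 4.82% lower (20.9% and 18.7% after rescaling), with a median of 0.35. *Phlda2*, an imprinted growth regulator beside *Slc22a18*, rose by 2.86 (limma adjusted p = 4.77e-07), from 0.216 ± 0.350 to 8.04 ± 3.29 TPM (SD, n = 6 each), and was at 0 in all 3 WT females.

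*Slc22a23*, an orphan member on the minus strand at chr13:34179158-34345182, was at 24.33, 30.80 and 29.42 TPM in WT males and at 34.25, 34.61 and 27.85 TPM in WT females. In KO males it was at 26.08, 31.94 and 45.82 TPM and in KO females at 29.79, 32.39 and 27.66 TPM. All 4 groups overlapped, and the highest library was KO male replicate 3. The difference over both sexes was 0.08 (95% interval -0.22 to 0.38, limma adjusted p = 0.650). After rescaling it was -0.37 and passed (limma adjusted p = 0.0233), so its direction depended on the scaling.

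**Figure D5:**
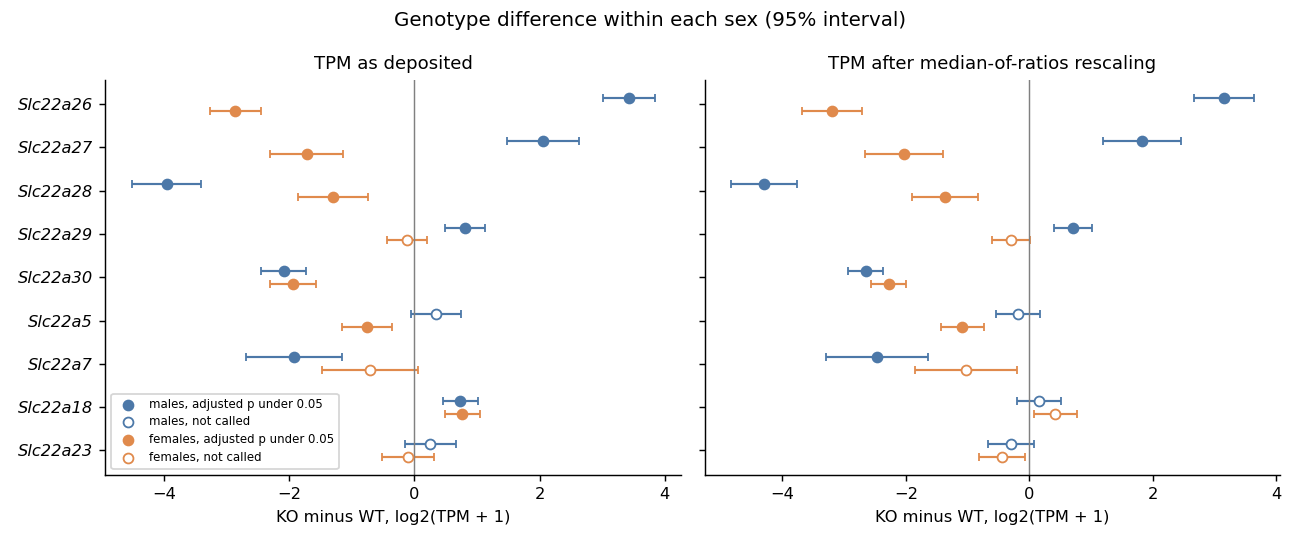
KO minus WT difference in log2(TPM + 1) for the 9 members in males (blue) and females (orange), with 95% intervals from limma, on the deposited scale (left) and after median-of-ratios rescaling (right); filled points have an adjusted p under 0.05. *Slc22a26* and *Slc22a27* lie right of 0 in males and left of 0 in females on both scales, and *Slc22a18* loses its filled points after rescaling.

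The male and female genotype effects differed in an interaction test, the male difference minus the female difference, for 3 of 9 members, where 0.912% of all tested genes passed (0.586% higher and 0.326% lower). The interaction was 6.29 for *Slc22a26* (SE 0.267, limma adjusted p = 2.00e-08) and 3.77 for *Slc22a27* (SE 0.378, limma adjusted p = 9.92e-05). It was -2.66 for *Slc22a28* (SE 0.364, limma adjusted p = 0.00177), which fell in both sexes and further in males on the log2(TPM + 1) scale. With a pseudocount of 0.1 the *Slc22a28* interaction was -3.19 and did not pass (limma adjusted p = 0.160). For *Slc22a29* the interaction of 0.93 did not pass (SE 0.208, limma adjusted p = 0.0674), but it passed after rescaling (1.01, limma adjusted p = 0.0378), so that 4 of 9 members passed on that scale, where 0.839% of all tested genes did. It passed under 5 of the other settings in all, rescaling included, with limma adjusted p between 0.00335 and 0.0477. The *Slc22a5* interaction of 1.10 did not pass (limma adjusted p = 0.0973) except without WT male replicate 3 (1.26, limma adjusted p = 0.0310). The *Slc22a7* interaction of -1.21 did not pass (limma adjusted p = 0.497) except without WT female replicate 3 (-1.75, limma adjusted p = 0.0141). For *Slc22a30* it was -0.15 (95% interval -0.66 to 0.36), for *Slc22a23* 0.36 (limma adjusted p = 0.711) and for *Slc22a18* -0.04 (limma adjusted p = 0.959).

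Within WT livers, males and females differed for 5 of 9 members, 1 higher in males and 4 higher in females, where 5.74% of all tested genes passed (1.14% and 4.6%). *Slc22a28* was higher in males by 2.72 (limma adjusted p = 2.60e-05), and its male level was 9.10 times the female level by reads (counting interval 7.55 to 11.1). *Slc22a26*, at -6.98 in males relative to females (limma adjusted p = 7.27e-11), and *Slc22a27*, at -4.53 (limma adjusted p = 2.19e-07), were higher in females. So were *Slc22a29* at -1.17 (limma adjusted p = 3.64e-04) and *Slc22a5* at -1.01 (limma adjusted p = 0.00741), the latter 2.12-fold by mean TPM. *Slc22a30* was 0.47 higher in males without passing (limma adjusted p = 0.111), although all 3 males were above all 3 females, and after rescaling it passed at 0.69 (limma adjusted p = 0.00950). *Slc22a7* was 0.88 higher in males without passing (limma adjusted p = 0.146). This difference was 0.50 without WT female replicate 2 (limma adjusted p = 0.427) and passed at 1.42 without WT female replicate 3 (limma adjusted p = 0.00318). Male and female WT values did not overlap for 6 members, 2 higher and 4 lower in males, where 5.99% and 27.5% of all tested genes did so. After rescaling 6 of 9 members passed, 2 higher and 4 lower in males, where 2.11% of all genes passed as higher and 2.27% as lower in males.

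Within KO livers 0 of 9 members passed in limma between males and females, where 0.0814% of all tested genes passed. At an unadjusted p under 0.05 there were 2, *Slc22a26* at -0.69 in males relative to females (95% interval -1.10 to -0.28, limma adjusted p = 0.692) and *Slc22a27* at -0.76 (95% interval -1.34 to -0.18, limma adjusted p = 0.843). Of all 12278 tested genes 655 were at that unadjusted level. The male and female values of *Slc22a26*, *Slc22a7* and *Slc22a29* did not overlap, all lower in KO males, where 5.09% of all tested genes had males wholly below females. These comparisons share libraries with those within each sex and with the interaction.

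Of 17 other *Slc22* genes, 16 were in the table and 5 were tested. *Slc22a14*, *Slc22a16*, *Slc22a19*, *Slc22a20* and *Slc22a22* were listed at 0 in every library, and are named for that reason. Over both sexes 1 of the 5 was higher and 2 were lower in KO, with a median of 0.16, where 50.1% of all tested genes were higher and 4.82% lower, with a median of 0.35. *Slc22a3*, the organic cation transporter OCT3, rose by 1.21 (SE 0.174, limma adjusted p = 6.91e-05), from 1.89 ± 0.423 to 5.83 ± 1.64 TPM (SD, n = 6 each). *Slc22a4*, the ergothioneine transporter OCTN1, fell by 0.75 (SE 0.194, limma adjusted p = 0.00554), from 2.16 ± 0.979 to 0.842 ± 0.369 TPM (SD, n = 6 each). In limma 0 of the 5 passed between the sexes in WT, between the sexes in KO or in the interaction, and 0 of the 5 did so at an unadjusted p under 0.05. Of all tested genes 5.74%, 0.0814% and 0.912% passed in these comparisons, so 0 of 5 passing was near the share of all genes. At an unadjusted p under 0.05 there were 3148, 655 and 1087 of all 12278 tested genes.

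Genes outside the family but within 500000 bases of the cluster on either side were counted as well. Of 33 such genes in the table, 23 were tested. Over both sexes 11 of the 23 were higher and 0 lower in KO on the deposited scale, and 4 were higher and 6 lower after rescaling. Over all tested genes 50.1% were higher and 4.82% lower on the deposited scale, and 20.9% and 18.7% after rescaling. Between WT males and females 0 were higher and 1 was lower in males on both scales. Of all tested genes 1.14% were higher and 4.6% lower in WT males (2.11% and 2.27% after rescaling). In the interaction 0 passed in limma, where 0.912% of all tested genes passed. At an unadjusted p under 0.05 there were 0 (1 after rescaling), where 1087 of all 12278 tested genes were (931 after rescaling).

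By the same measure of likeness, the tested genes near to *Slc22a26* included *Cyp2a22* at rank 1 (0.793) and *Slc22a27* at rank 3 (0.929). Nearest to *Slc22a27* were *Cyp2a22* (0.510), a cytochrome P450, *Abcd2* (0.666), a peroxisomal ABC transporter, and *Cyp2c38* (0.725), another cytochrome P450. *Slc22a26* was at rank 9 for *Slc22a27*. Nearest to *Slc22a28* were *Nat8* (0.452), *Cyp7b1* (0.568) and *Susd4* (0.590), with *Slc22a30* at rank 17. *Cyp7b1*, an oxysterol hydroxylase, had mean levels of 404 TPM in WT males, 49.4 in WT females, 11.5 in KO males and 11.9 in KO females. Nearest to *Slc22a30* were *Serpina1c* (0.257), an antitrypsin gene, *Cyp2d40* (0.294) and *Tspan33* (0.321), with *Slc22a28* at rank 452. These measures were taken over 12 livers that share groups and scaling, and are given for the 4 members whose group means spanned at least 2 on the log2 scale.

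Of 12 genes of growth hormone signalling or of the regulation of sex-dependent liver expression, all 12 were tested. Over both sexes 3 were higher and 2 lower in KO (0 and 3 after rescaling), with a median of 0.11. Over all tested genes 50.1% were higher and 4.82% lower (20.9% and 18.7% after rescaling), with a median of 0.35. *Ghr*, the growth hormone receptor, fell by 1.06 (limma adjusted p = 8.06e-06), from 200 ± 26.9 to 95.9 ± 14.8 TPM (SD, n = 6 each). In males 4 of the 12 were higher and 1 lower in KO (1 and 2 after rescaling). Of all tested genes 43.3% and 2.81% were (13.9% and 10.2% after rescaling). In females 1 of the 12 was higher and 5 lower (0 and 5 after rescaling). The shares of all tested genes there were 29.1% and 4.68% (15.2% and 10.9% after rescaling). In WT livers 3 of the 12 were higher in females and 0 in males, where 4.6% and 1.14% of all tested genes were. *Cux2*, a repressor found in female liver, had 13.4 ± 6.52 TPM in WT females against 0.0679 ± 0.0321 in WT males (SD, n = 3 each). Its KO levels were 3.56 ± 1.84 TPM in females against 0.774 ± 0.506 in males (SD, n = 3 each). *Trim24* had an interaction of 1.71 (limma adjusted p = 0.00945), with 7.51 ± 2.26 TPM in WT males, 32.8 ± 4.72 in WT females, 14.9 ± 2.73 in KO males and 18.5 ± 1.83 in KO females (SD, n = 3 each). It was the only gene of the 12 to pass in the interaction on either scale. The part of these genes in the *Slc22* values was not tested.

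The authors' deposited table of KO against WT gave *Slc22a28* a log2 fold change of -7.76, *Slc22a30* -2.67 and *Slc22a7* -2.20, each with an FDR listed as 0. The same sign was found above for all 3. In the authors' deposited table *Slc22a18* was at 0.20 with an FDR of 0.54, *Slc22a5* at -0.40 with an FDR of 0.16 and *Slc22a23* at -0.42 with an FDR of 0.06. For *Slc22a26* the authors' deposited table gave a log2 fold change of 4.90, a fold of 29.8 higher in KO, with an FDR listed as 0. The mean of the deposited TPM of *Slc22a26* was 72.3 in WT and 15.3 in KO, while the sex-adjusted limma difference on the log2(TPM + 1) scale was 0.28 and did not pass, with values from -0.16 to 1.39 over all settings. The authors' deposited table likewise listed *Slc22a27* at 2.76 and *Slc22a29* at 3.44, each with an FDR listed as 0. How the authors' deposited table combined the sexes is not given in the sources used here.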

How the data were processed

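The deposited table held TPM for 25676 genes in 12 livers, 1 column per sample, per the file headers, with 0 sample columns unmatched. The authors made these TPM from their reads. The submitters' processing notes name the GRCm38 build and edgeR without a role, and the aligner, the counter, the annotation and the use of strand are not given in the sources used here. The authors' deposited table also gave a signed fold, its log2 value and an FDR p-value per gene for KO against WT, read for comparison only. TPM keeps no library total, so the depth behind a member is given as reads recovered from the steps in low TPM values. These reads assume whole-read counting and the transcript lengths of GENCODE M21, which may not be the lengths behind the deposited TPM. In each library 97.3% to 98.5% of low values (under 12 reads) of genes with 1 annotated transcript were whole to within 0.03 of a read. A read of a member was worth between 0.0111 and 0.0677 TPM. Intervals on read ratios are exact at 95% and cover counting error only, as do the floors of 3 reads.

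TPM were taken as log2(TPM + 1), which understates the changes of low genes, and the 12278 genes averaging at least 0.5 TPM were tested. limma 3.58.1 in R 4.3.3 was fitted to all 12 samples, with sex as a covariate for the genotype comparison and with the 4 group means for the others, using eBayes with an intensity trend. Two-sided p-values were adjusted by Benjamini-Hochberg over all tested genes, with a threshold of 0.05. The fit was checked on simulated data. Alternatives were a pseudocount of 0.1, no filter, at least 1 TPM in at least 3 samples, median-of-ratios rescaling, rescaling without the 20 most abundant genes, a covariate for the pair of libraries with the lowest numbers in their label codes (what the codes stand for is not given in the sources used here), no intensity trend, fits of the compared groups alone and leaving out each library.

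The members and gene lists were chosen with earlier results of these data known. Named genes were the members, other *Slc22* genes past the threshold (at most 5), up to 3 called genes of a list with the largest change, the 3 genes most like each member whose group means spanned at least 2, and the genes that check genotype and sex. Coding identities were computed with Biopython 1.88 from GENCODE M21, and promoters from RefSeq matched 8 of 9 members, not *Slc22a7*. Some genes that this rule names are not reported here, and genes outside it (*Epcam*, *Krt19*, *Lrat* and the *Slc22* genes at 0) were named after their values were seen. Read ratios without 1 library were added after seeing the data.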

Additional observations from a re-analysis of the deposited data

Results flagged for a closer look

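For 3 of the 9 genes the effect of the knockout differed between males and females in limma's test of the difference itself, the male KO minus WT difference minus the female one on the log2(TPM + 1) scale, where 0.912% of all tested genes passed. It was 6.29 for *Slc22a26*, for which all 3 KO males were above all 3 WT males and all 3 KO females below all 3 WT females, as were 50.8% of all tested genes in males and 7.88% in females. It was 3.77 for *Slc22a27*, with the same separation in both sexes. It was -2.66 for *Slc22a28*, which was lower in KO in both sexes, with the larger difference in males. With a pseudocount of 0.1 in place of 1 the *Slc22a28* difference was -3.19 with a limma adjusted p of 0.160, and over all settings its adjusted p ranged from 6.10e-04 to 0.160.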

How the results depend on the processing

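Of 1062 fold changes of members under the alternatives, 1020 kept their direction and their side of the threshold, 4 lost the call, 13 gained it and 25 changed sign. Rescaling by median of ratios gave sign changes over both sexes for *Slc22a26* (-0.022), *Slc22a27* (-0.10) and *Slc22a23* (-0.37), in males for *Slc22a23* (-0.31) and *Slc22a5* (-0.18), and between WT males and females for *Slc22a23* (0.033) and *Slc22a18* (0.15). It also gave 2959 called genes in males against 5663. Leaving out 1 library at a time gave ranges that crossed 0 over both sexes for *Slc22a26* (-0.16 to 0.67), *Slc22a27* (-0.093 to 0.50) and *Slc22a23* (-0.037 to 0.14). The same held between WT sexes for *Slc22a18* (-0.13 to 0.00051), between KO sexes for *Slc22a28* (-0.062 to 0.12), *Slc22a23* (-0.048 to 0.35) and *Slc22a5* (-0.020 to 0.21), and in the interaction for *Slc22a18* (-0.13 to 0.025). None of these differences had passed on the deposited scale, and of their sign changes the *Slc22a23* value of -0.37 passed. Between WT males and females 705 genes were called, against 409 with the covariate for the lowest label codes, 399 with the compared groups alone, and 291 to 1698 leaving out 1 library (1698 without WT male replicate 3). Leaving out 1 library gave 6 to 10 called genes between KO sexes, against 10, and 75 to 176 in the interaction, against 112. The cause was not tested. No paired analysis was possible because the replicate numbers follow the order of deposition and the labels pair no animals. Depth limits *Slc22a29*, with 12 to 49 reads where detected, and *Slc22a28* in KO livers, with 0 to 5.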
